A study of Mus musculus with 2 samples.

Results

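The genes described here are 9 members of the interleukin-1 (IL-1) family and its receptors: the ligands Il1a, Il1b, Il18 and Il33, the antagonist Il1rn, the binding protein Il18bp, the receptors Il1r1 and Il1r2, and the receptor accessory chain Il1rap. They were chosen by symbol, each symbol was matched to a single gene identifier through the names in the deposited transcript tables, and they are 9 of 55536 annotated genes, of which 22028 are protein-coding. Bone marrow-derived macrophages, cells cultured out of marrow, came from C57BL/6J mice and were given 100 ng/ml of lipid A for 75 min; RNA of their chromatin fraction was sequenced once ribosomal RNA had been removed. Lipid A is the moiety of bacterial lipopolysaccharide recognised by TLR4, and RNA held on chromatin is rich in transcripts still being made or spliced. The series is 1 group of 2 libraries, labelled replicates 1 and 2. The strain, treatment, time and fraction are the same in both, no genetic change is named, and no untreated cells were analysed here, so every value below is a level after lipid A and none is a response to it.

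The 2 libraries differ in ways that touch every value. Their input was 250 ng of RNA for replicate 1 and 500 ng for replicate 2, and the annotated genes received 21453617 and 29638814 estimated counts. The labels give both the same donor entry and do not say whether the cultures came from separate mice, so each SD measures only the spread between these samples, which may be technical. Levels are given in TPM, estimated counts divided by transcript length and scaled to a fixed sum over the library, the only scale here on which genes can be set side by side. Protein-coding genes took 14.0% of that sum in replicate 1 and 24.99% in replicate 2, and the 7633 protein-coding genes at 1 TPM or more in both replicates had a median TPM ratio of 1.73, replicate 2 over replicate 1. A TPM of a member that is higher in replicate 2 has therefore to be read against that median. Of 9 macrophage markers, 8 reached 1 TPM in both replicates (Csf1r 45.6 and 40.7 TPM), while none of the 40 markers of dendritic cells, neutrophils, T and NK cells, B cells, stromal, endothelial and epithelial cells, or mast cells and basophils did. That holds for the first of the 2 deposited quantifications; by the second, all 9 macrophage markers and 5 of the 40 others (Zbtb46, Cd4, Ms4a1, Pecam1 and Kdr) reached it. In bulk RNA, fewer cells of a type and less RNA per cell cannot be told apart.

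IL-1α and IL-1β are agonists that bind the receptor IL-1R1, which then pairs with the accessory chain IL-1RAP and signals through the adaptor MyD88. The pathway is held in check by the receptor antagonist IL-1Ra, made from Il1rn, and the decoy receptor IL-1R2, which binds ligand without signalling. The IL-18 binding protein acts on IL-18 instead. IL-1β and IL-18 are made as precursors that caspase-1 cleaves in inflammasomes, whereas IL-33 is a nuclear alarmin best known from barrier and stromal cells.

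The promoter windows of the agonist and antagonist genes are printed because the start site is the point on which several members' transcripts divide, and because both agonist genes, Il1b and Il1a, have the letters TATAAA at nearly the same distance from it. Each window is the stretch of 250 bases before a RefSeq transcription start, build mm10, read 5′ to 3′ on the gene's strand; all 9 members matched, with 13 windows. Capitals mark the motifs searched, on either strand: the NF-κB consensus (by name), the TATA box letters TATAAA, the AP-1 letters TGANTCA, the C/EBP-type letters TTNCNNAA, the core of the interferon-stimulated response element (by name) and the PU.1 core GAGGAA. The lines give, in order, Il1b at chr2:129371140-129371389 on the minus strand, Il1a at chr2:129309973-129310222 on the minus strand, the upstream and downstream starts of Il1rn at chr2:24336610-24336859 and chr2:24345041-24345290 on the plus strand, and the upstream and downstream starts of Il33 at chr19:29924863-29925112 and chr19:29945540-29945789 on the plus strand.
Il1b: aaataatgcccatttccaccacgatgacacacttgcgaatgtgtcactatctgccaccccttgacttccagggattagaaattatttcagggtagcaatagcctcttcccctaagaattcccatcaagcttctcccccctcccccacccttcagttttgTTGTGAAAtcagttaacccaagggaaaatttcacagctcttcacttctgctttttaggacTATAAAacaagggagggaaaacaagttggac
Il1a: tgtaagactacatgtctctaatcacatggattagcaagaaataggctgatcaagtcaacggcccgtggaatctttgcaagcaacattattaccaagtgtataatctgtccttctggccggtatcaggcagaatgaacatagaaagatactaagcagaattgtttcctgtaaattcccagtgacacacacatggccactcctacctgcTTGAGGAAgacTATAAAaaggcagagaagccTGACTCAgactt
Il1rn upstream start: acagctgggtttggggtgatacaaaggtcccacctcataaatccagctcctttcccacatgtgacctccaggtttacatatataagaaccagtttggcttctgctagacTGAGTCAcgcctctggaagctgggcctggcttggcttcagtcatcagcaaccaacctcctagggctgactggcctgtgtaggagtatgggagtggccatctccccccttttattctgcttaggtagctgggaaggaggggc
Il1rn downstream start: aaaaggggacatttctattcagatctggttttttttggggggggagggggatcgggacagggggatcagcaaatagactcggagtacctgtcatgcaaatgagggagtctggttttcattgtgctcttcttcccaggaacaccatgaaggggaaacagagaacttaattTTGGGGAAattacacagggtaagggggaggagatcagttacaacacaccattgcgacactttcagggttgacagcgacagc
Il33 upstream start: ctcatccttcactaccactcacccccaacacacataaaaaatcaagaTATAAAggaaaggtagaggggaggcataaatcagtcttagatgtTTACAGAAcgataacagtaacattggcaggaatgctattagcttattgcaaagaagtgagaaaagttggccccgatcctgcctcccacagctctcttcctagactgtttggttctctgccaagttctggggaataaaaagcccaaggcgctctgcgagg
Il33 downstream start: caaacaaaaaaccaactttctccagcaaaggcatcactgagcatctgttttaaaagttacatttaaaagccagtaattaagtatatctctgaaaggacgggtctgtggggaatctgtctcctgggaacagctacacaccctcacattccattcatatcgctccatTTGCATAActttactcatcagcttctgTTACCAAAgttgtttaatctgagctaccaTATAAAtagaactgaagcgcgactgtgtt

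TATAAA lay on the gene's own strand 31 to 26 bases before the Il1b start, 32 to 27 bases before the Il1a start and 29 to 24 bases before the downstream Il33 start. These were 3 of the 13 member windows with TATAAA beginning 20 to 40 bases before the start, an interval chosen after the windows were seen, against 1.99% of all 32851 RefSeq windows. At any distance and on either strand, TATAAA was in 5 of the 13 windows and in 12.4% of all windows. The upstream Il33 start had it only 203 to 198 bases away, and no Il1rn window had it. TGANTCA was in 2 windows, 12 to 6 bases before the Il1a start and 141 to 135 bases before the upstream Il1rn start, against 6.75% of all windows. TTNCNNAA was in 9 windows of 6 genes and in 36.8% of all windows. A further downstream Il1rn window, chr2:24345121-24345370, is not printed. It overlaps the printed downstream window and holds the same TTGGGGAA match, which therefore counts in both. In Il1a, TTNCNNAA overlaps the single GAGGAA match, a motif that 23.3% of all windows hold. The NF-κB consensus was found once, before the downstream start of Il1r1, overlapping a TTNCNNAA match, against 7.25% of all windows, and the core of the interferon-stimulated response element was found in no member window and in 2.98% of all windows. These are matches of letters in short windows and say nothing of whether a factor was bound.

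By mean TPM of the first quantification, the agonist genes Il1b and Il1a stood highest of the 9, followed by the antagonist gene Il1rn. The receptor Il1r1 and its accessory chain were low and the decoy receptor was close to absent. These means fell in the order Il1b, Il1a, Il1rn, Il18, Il18bp, Il1r1, Il33, Il1rap, Il1r2. By the second quantification the mean of Il1rn (212 TPM) was above that of Il1a (177 TPM). In replicate 1 of the first, Il33 was below Il1rap (0.15 against 0.26 TPM). At 1 TPM or more in both replicates, 6 of the 9 members were expressed; across the annotation 34.7% of protein-coding genes and 17.4% of all genes were. The members that did not reach it were Il33, Il1rap and Il1r2. The second quantification that the authors deposited, made from the reads by another method, left the same 3 out, with 44.9% of protein-coding genes at that level.

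**Figure D1:**
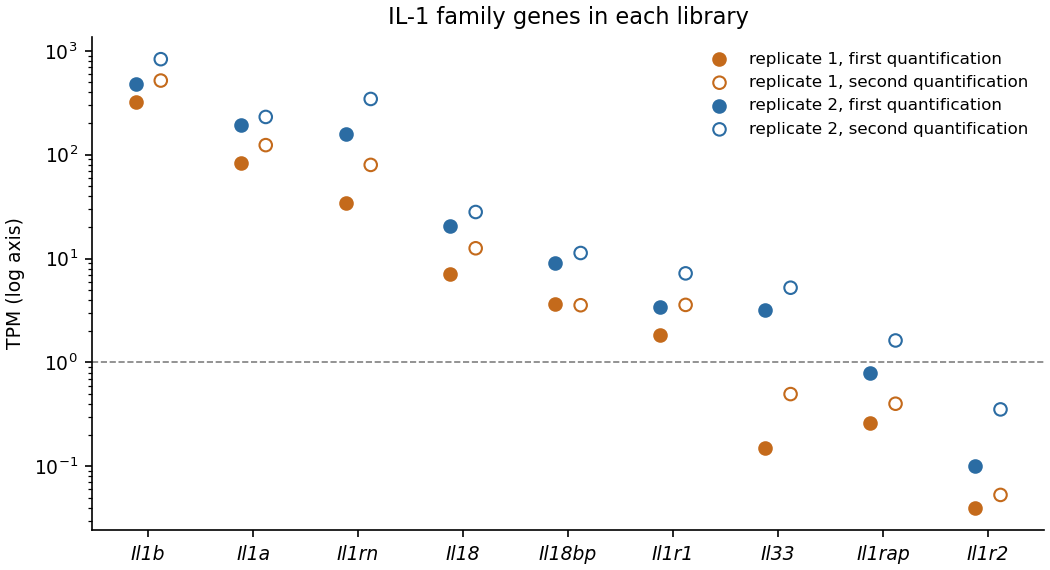
TPM (log axis) of the 9 genes in replicate 1 and replicate 2, from the first quantification (filled) and the second (open), with the dashed line at 1 TPM. Il1b, Il1a and Il1rn stand above the others in both libraries, and Il1r2 lies below 1 TPM in all 4 values.

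Il1b, on the minus strand at chr2:129364570-129371139, was at 321 TPM in replicate 1 and 483 TPM in replicate 2 (402 ± 115, SD, n = 2), from 6443 and 11519 estimated counts. It ranked 28 and 38 among the protein-coding genes. The second quantification put it at 517 and 830 TPM, higher in both libraries than the first. The 3 protein-coding genes whose levels lay nearest to Il1b in both libraries, by the larger of the 2 differences in log2(TPM + 1), were Iqgap1 (0.10), 2010111I01Rik (0.12) and Gas7 (0.19).

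Il1a, which encodes the other IL-1 agonist, lies 54597 bases from Il1b on the same strand, at chr2:129299610-129309972. Its levels were 82.9 and 192 TPM (137 ± 77.1, SD, n = 2), from 4256 and 10624 estimated counts, rank 311 and 224, and the second quantification gave 124 and 231 TPM. The ranges of Il1a and Il1b over the libraries did not overlap, although that of the coding transcript of Il1b alone, 117 and 222 TPM, overlapped the range of Il1a. Klf6 (0.03), Resf1 (0.04) and Trps1 (0.08) were the genes nearest to Il1a on the measure used for Il1b. The non-coding gene Gm14023 lies on the opposite strand and shares 222 exonic bases with the 1974 of Il1a; it had 4845 and 7827 estimated counts. No source used here says if the counting was by strand, so reads of the shared stretch cannot be told apart. Il1bos, opposite to Il1b, shares 25 exonic bases with it and had 272 and 682 counts.

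Il1rn encodes the receptor antagonist and lies 104948115 bases away from Il1a on the same chromosome, at chr2:24336853-24351494. It was at 34.0 TPM in replicate 1 and 157 TPM in replicate 2 (95.6 ± 87.1, SD, n = 2), from 1223 and 5884 counts, rank 856 and 284. The second quantification gave 79.8 and 344 TPM. The libraries were thus far apart for Il1rn, and its range overlapped that of Il1a, so the order of those 2 genes is not separated by these data. In replicate 2 of the second quantification Il1rn was above Il1a. Zup1 (0.19), Slfn8 (0.22) and Mthfsl (0.25) were nearest to Il1rn.

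Ratios within a library need no scaling between libraries. Il1b exceeded Il1rn 9.44-fold in replicate 1 and 3.08-fold in replicate 2, and the second quantification gave 6.48 and 2.42. Il1a exceeded Il1rn 2.44-fold and 1.22-fold, and the second quantification gave 1.55 and 0.671. Gene totals include non-coding transcripts. Il1a has 1 annotated transcript, which is coding. Leaving non-coding transcripts out can therefore only lower Il1b over Il1a and raise Il1a over Il1rn. With that limit, the ratios were also taken over protein-coding transcripts alone. On that count Il1a exceeded Il1rn 5.51-fold and 2.82-fold, and 3.23-fold and 1.46-fold by the second quantification, so it was above Il1rn in all 4 values. Il1b exceeded Il1rn 7.75-fold and 3.26-fold, and 3.79-fold and 1.60-fold by the second quantification. For both agonists the excess over the antagonist was larger in replicate 1 by each of these measures. Il1b over Il1a was 3.87 and 2.52, with 4.18 and 3.60 from the second quantification. Over coding transcripts alone it was 1.41 and 1.15, with 1.17 and 1.09 from the second quantification. Much of the excess of Il1b over Il1a was thus assigned to its non-coding transcripts, a kind that is not annotated for Il1a. How much of Il1b was coding was itself not resolved, as given below. These ratios were chosen after the levels had been seen.

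**Figure D2:**
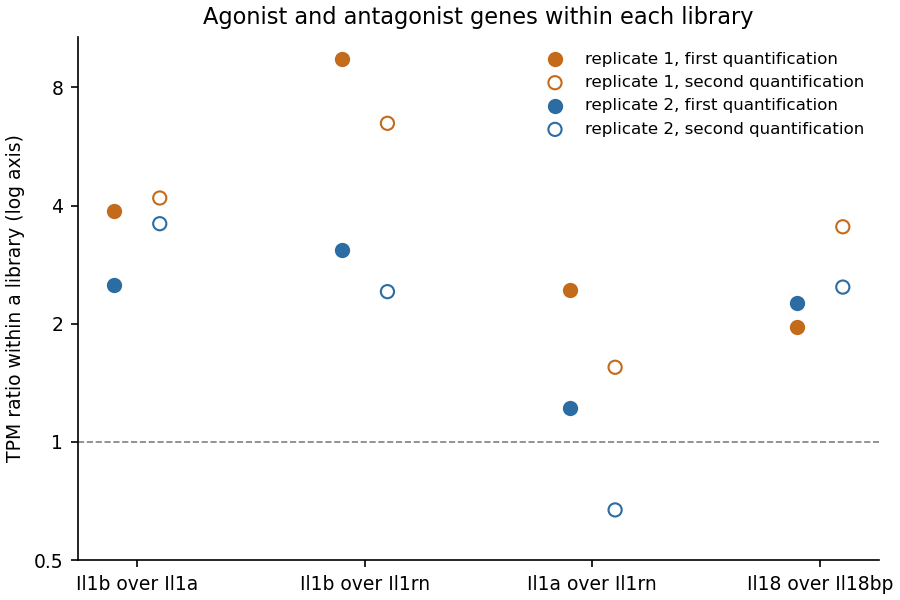
Ratio of gene TPM, all transcripts summed, between pairs of genes inside each library (log axis) for both replicates and both quantifications, with the dashed line at equal levels. The excess of Il1b over Il1rn runs from 2.42 to 9.44 and is smaller in replicate 2 by either quantification, while Il1b over Il1a stays between 2.52 and 4.18.

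Il18 encodes an IL-1 family cytokine known for driving interferon-γ production, and Il18bp encodes the secreted protein that neutralises it. Il18, at chr9:50554827-50581840, was at 7.14 and 20.5 TPM (13.8 ± 9.48, SD, n = 2), from 108 and 318 counts. Il18bp, at chr7:102014885-102018690, was at 3.63 and 9.11 TPM (6.37 ± 3.87, SD, n = 2), from 204 and 538 counts. Il18 exceeded its binding protein in each library, 1.97-fold and 2.25-fold, although the ranges over the libraries overlapped; the second quantification gave 3.53 and 2.48. The 3′ end of Il18bp shares 80 exonic bases with Numa1 on the opposite strand, which had 1514 and 1683 counts. Il18 shares no exonic base with the genes Tex12 and Bco2 that overlap it.

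Il33, at chr19:29925114-29960718, was the member on which the libraries differed most. It had 9 estimated counts in replicate 1 (exact Poisson 95% interval 4.12 to 17.1) and 137 in replicate 2 (115 to 162), or 0.15 and 3.22 TPM. The second quantification gave 0.496 and 5.24 TPM, so the direction was the same, and replicate 2 carries nearly all of the mean. These intervals cover counting error only, since reads amplified by PCR are not independent molecules. Of 10 markers of stromal, endothelial and epithelial cells, which are known sources of Il33, none reached 1 TPM in both replicates by the first quantification, and 2 did by the second: Kdr at 1.81 and 5.53 TPM and Pecam1 at 3.36 and 8.67 TPM, both endothelial. The summed level of the 10 was 2.33 and 4.87 TPM by the first quantification and 7.57 and 19.1 TPM by the second. By the first, 5 of them had a higher TPM in replicate 2. These were Kdr (0.94 and 3.17 TPM), Col1a1 (0.16 and 0.56 TPM), Col1a2, Pecam1 and Pdgfra, the last from 9 counts in each library. By the same quantification 2 were lower: the endothelial Cdh5 at 0.74 and 0.08 TPM and Dcn at 0.07 and 0.04 TPM. The other 3, Epcam, Krt5 and Krt8, had 0 counts there in both libraries, which allows up to 0.140 and 0.101 CPM (counts scaled to the library total). The sums and the marker levels have to be read against the median TPM ratio of 1.73 among expressed protein-coding genes, replicate 2 over replicate 1. The part of such cells in the Il33 value was not tested.

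The receptor chains were low. Il1r1, the signalling receptor for IL-1, at chr1:40225080-40317257, was at 1.84 and 3.45 TPM from 270 and 526 counts, and at 3.58 and 7.21 TPM by the second quantification. By gene totals Il1b stood 174 and 140 times above it within the libraries. The coding transcript Il1b-201 alone was at 117 and 222 TPM, so the excess of coding Il1b was smaller. An unspliced annotated gene of the provisional type TEC, Gm38070, lies on the same strand inside Il1r1 without sharing an exonic base. It was assigned 429 and 691 counts, 1.59 and 1.31 times those of Il1r1. In RNA held on chromatin, reads of this stretch cannot be told apart from unspliced precursors of Il1r1. The Il1r1 levels given here leave the Gm38070 counts out. Il1rap, the accessory chain, at chr16:26581704-26730117, was at 0.26 and 0.80 TPM from 19 and 68 counts, and at 0.401 and 1.63 TPM by the second quantification. Il1r1 exceeded Il1rap 7.08-fold and 4.31-fold. Il1r2, the decoy receptor, at chr1:40074079-40125231, had 1 and 2 counts, under the limit of 3 counts used here for absence, so no fold was formed for it. The ranges of Il1r1 and Il33 overlapped, as did those of Il33 and Il1rap, whereas Il18bp lay above Il1r1 and Il1rap above Il1r2 without overlap; by the second quantification Il18bp was above Il1r1 in 1 library only.

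To set the replicates side by side on 1 scale, counts were scaled with edgeR's TMM factors, which take most genes as equal between libraries, and a member was counted as different when its ratio passed 2-fold; with 1 library on each side there is no replicate check and no p-value. Of the 8 members with 20 or more counts in all, 2 were past 2-fold higher in replicate 2 and none was past 2-fold lower. Across the 14442 genes with that many counts, 9.55% were past 2-fold higher and 4.89% lower. The 2 were Il33, 7.47-fold higher (95% counting interval 3.82 to 16.7; log2 ratio 2.90, percentile 99.7 of all genes), and Il1rn, 2.36-fold higher (2.22 to 2.51; log2 ratio 1.24, percentile 94.2). By the second quantification Il33 passed 2-fold and Il1rn, at a log2 ratio of 0.85, did not; 6.01% of all genes were past 2-fold higher there. The median log2 ratio of the 8 members was 0.45, beside 0.06 over all genes tested and -0.03 over protein-coding genes.

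The other members lay inside 2-fold. Il1b had a log2 ratio of -0.19 and Il1r1 of -0.06, and with scaling by library size alone these became 0.37 and 0.50, so no direction is given for either. Il1a was at 0.29 and Il18 at 0.53, and by the second quantification these were -0.30 and -0.08. Il18bp was at 0.37 and Il1rap at 0.81 (1.76-fold, counting interval 1.04 to 3.10), above 0 under each scaling tried. Relative to most genes, then, the antagonist gene differed between the libraries by more than either agonist gene did.

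**Figure D3:**
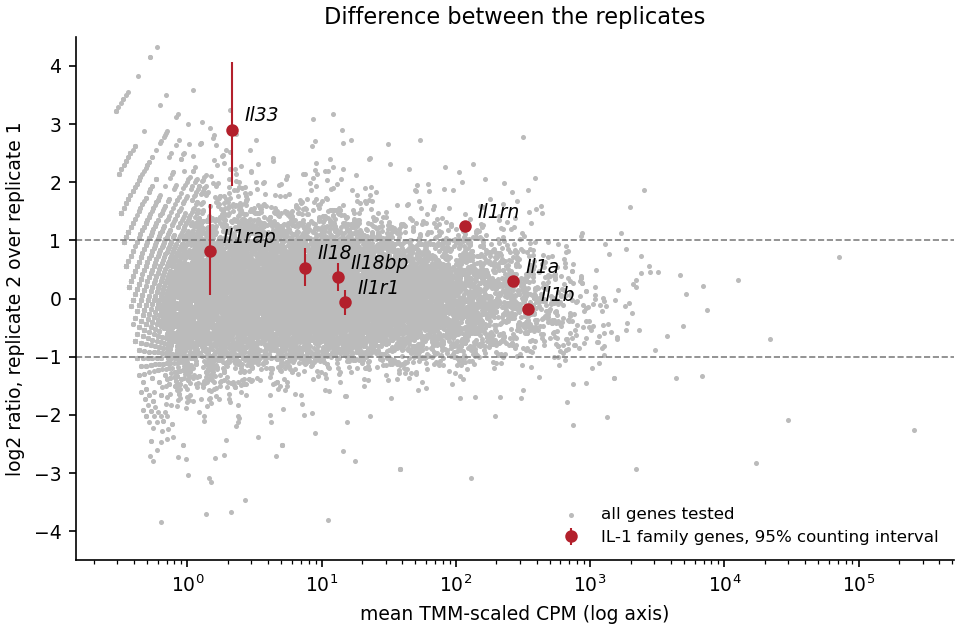
Log2 ratio of replicate 2 over replicate 1 against mean TMM-scaled CPM (log axis) for the genes tested (grey; genes with 0 counts in a library are not drawn) and for 8 IL-1 family genes (red, with 95% counting intervals), dashed lines at 2-fold. Il33 and Il1rn lie above the upper line, and the other 6 lie between the lines.

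At Il1b and Il1rn, much of the signal was assigned to non-coding transcripts whose bases lie largely in introns of the coding transcripts. RNA on chromatin holds unspliced transcripts. Reads of these introns therefore cannot be told apart from unspliced precursors of the coding transcripts. Il1b-203, annotated as a retained intron, starts at the same base as the coding transcript Il1b-201 and has 532 of its 689 bases outside the exons of that transcript. It received 39.6% of the Il1b counts in replicate 1 and 30.8% in replicate 2, and Il1b-201 received 59.7% and 68.6%. Because TPM divides by length, the short transcript took 60.5% and 51.0% of the Il1b TPM, and 42.2% and 32.6% by the second quantification. In each of these measures its share was larger in replicate 1. The quantifications disagree on a further short transcript, Il1b-202. It had 3.19% of the TPM in each replicate by the first and 29.7% and 37.0% by the second. Only 19 of its 379 bases lie outside the exons of Il1b-201, so how much of Il1b was coding was not resolved. The first quantification assigned only 117 and 222 of the 321 and 483 TPM of Il1b to Il1b-201.

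Il1rn has 2 clusters of start sites, with a window of each printed above, and the clusters are known to give different proteins. Il1rn-204 (159 codons), from the upstream start, encodes an intracellular form. Il1rn-201 (178 codons), from the downstream start, encodes the secreted form. Further coding transcripts are Il1rn-205 (upstream, 52 codons) and Il1rn-202 (downstream, 162 codons). They had few or no counts by the first quantification. By the second, Il1rn-205 had 44.5 and 395 counts and Il1rn-202 had 389 and 571. The share of a cluster is therefore not the share of a single protein form. Transcripts from the downstream start held 52.3% of Il1rn counts in replicate 1 and 59.7% in replicate 2, and those from the upstream start 47.7% and 40.3%. The downstream share was larger by other measures, at 74.3% and 79.1% of the TPM and at 70.1% and 72.5% of the counts of the second quantification. Both clusters received counts in both libraries by either quantification, but how evenly they shared them depends on the measure. Il1rn-201 had 445 and 2507 counts and Il1rn-204 had 403 and 1630. A non-coding transcript from the downstream start, Il1rn-206, has 412 of its 636 bases outside the coding transcripts and held 48.0% and 50.4% of the TPM from 15.5% and 17.1% of the counts. The TPM of Il1rn thus rests to a large degree on a short transcript. Il1rn-201 had 8.61 and 45.0 TPM, and Il1rn-204 had 6.09 and 22.9 TPM.

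At Il33 nearly all counts of the first quantification fell on transcripts from the downstream start: Il33-201, which begins at the start whose window holds TATAAA 29 bases away, had 8.67 and 130 of the 9 and 137 counts. The upstream transcript Il33-202, which encodes the same 266 codons, had 0 in both libraries, while the second quantification gave upstream transcripts together 20.8% of the counts in replicate 1 and 30.4% in replicate 2. The short transcript Il33-203 took 45.0% of the TPM in replicate 2 from 4.82% of the counts. Il33-201 alone was at 0.13 and 1.77 TPM.

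The transcripts of the receptors and of Il18 were not resolved. Il1r1-202, from the downstream start, held 60.6% and 77.1% of Il1r1 counts against 39.4% and 22.9% for Il1r1-201, but the second quantification gave 51.4% and 76.8% to Il1r1-201. Il1rap-206, with 360 codons, held 65.8% and 54.8% of Il1rap counts and Il1rap-201, with 570 codons, 25.6% and 42.8%; the second quantification gave 37.1% and 23.2% against 56.9% and 74.1%. Il18-201 and Il18-202 have the same ends and the same 192 codons, and the quantifications assigned the counts to different ones. Il18bp-202 held 69.2% and 63.1% of the Il18bp counts, with 72.0% and 64.7% by the second quantification. The transcript with the highest mean TPM was the same by both quantifications in 4 of the 9 members: Il1a, which has 1 transcript, Il1b, Il1rn and Il18bp.

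**Figure D4:**
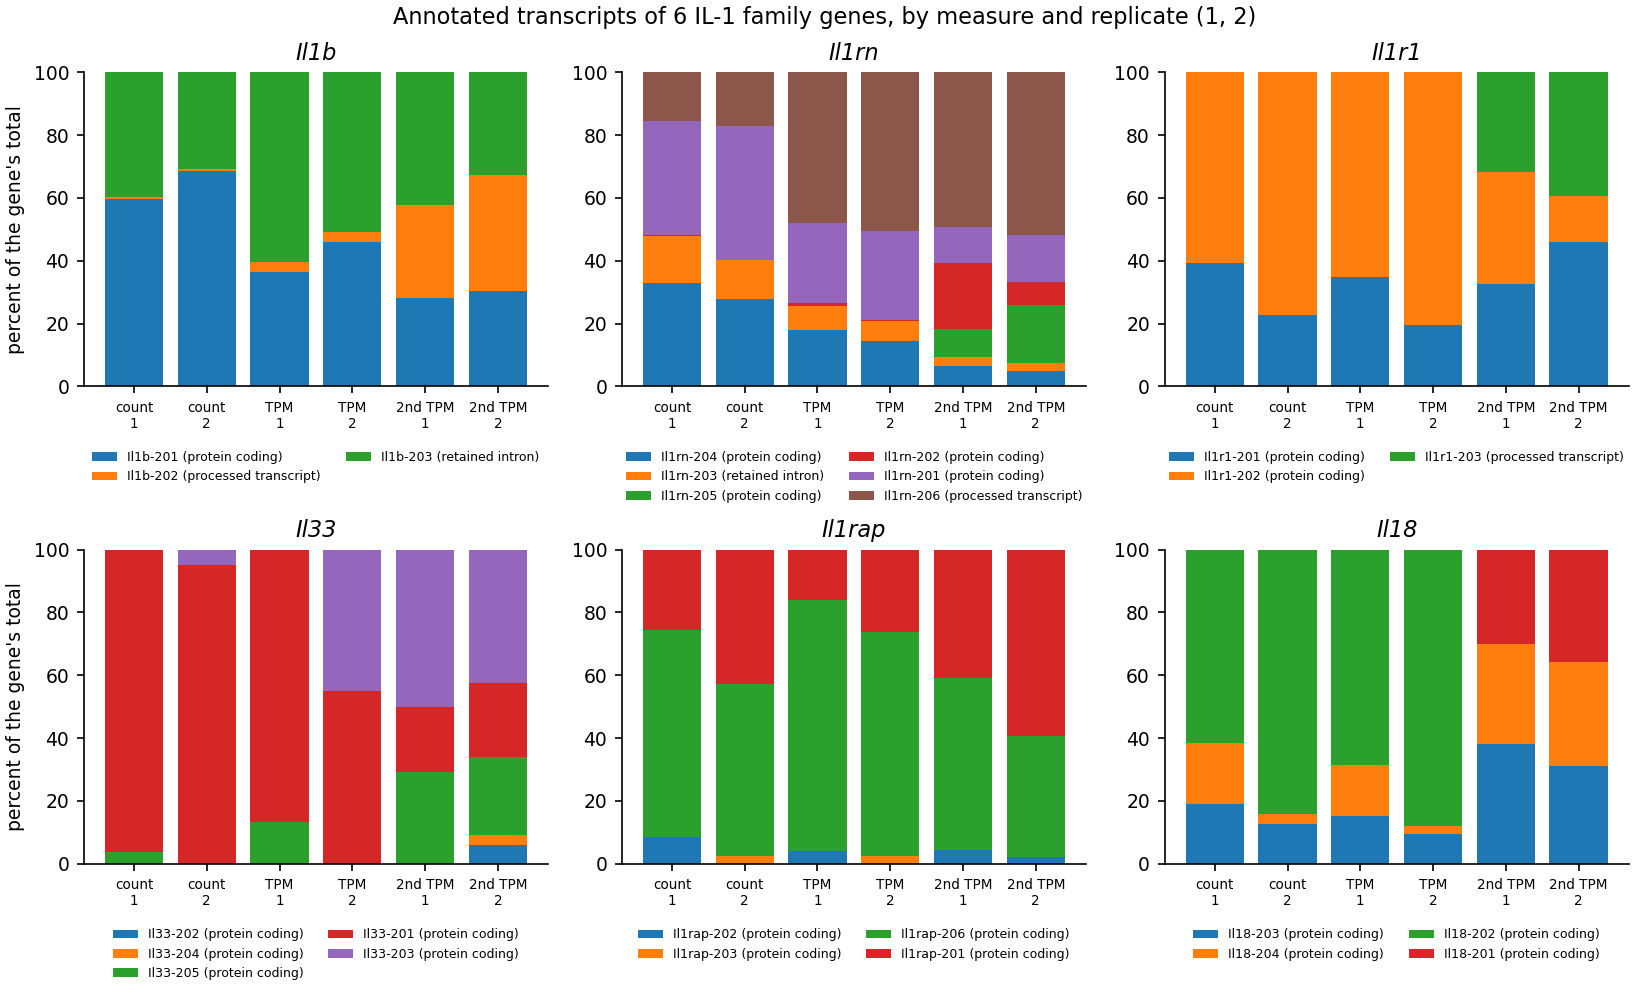
Share of each gene's total held by its annotated transcripts, in percent, for counts, TPM and TPM of the second quantification in replicates 1 and 2. The retained-intron transcript of Il1b and the non-coding Il1rn-206 hold large parts of the TPM in both libraries, while for Il1r1, Il1rap and Il18 the quantifications assign different transcripts.

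Around the members, most genes of cytokine processing and of receptor signalling were expressed by either quantification, and most other ligands of the family were not. Of the 7 other receptors, 1 was expressed by the first quantification and 4 by the second. The shares below stand beside the 34.7% of all protein-coding genes at 1 TPM or more in both replicates (44.9% by the second quantification). Of 15 genes of inflammasomes and cytokine processing, 14 reached 1 TPM in both replicates, all but Nlrp1a. Nlrp3, the sensor of the canonical inflammasome, was at 310 and 372 TPM. Casp1, the protease that cleaves the IL-1β and IL-18 precursors, was at 8.21 and 22.7 TPM, and the adaptor gene Pycard at 1.32 and 3.88 TPM. Casp4 (caspase-11), which binds lipopolysaccharide in the cytosol, was at 95.3 and 306 TPM, the pore-forming Gsdmd at 49.7 and 86.1 TPM, and Capn2, a subunit of the calpain protease that processes IL-1α, at 125 and 140 TPM. By gene totals Nlrp3 lay between Il1b and Il1a in each library, but it was above the coding transcript Il1b-201 alone (117 and 222 TPM). Casp1 was near the level of Il18.

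Of 18 genes of the MyD88 branch of receptor signalling, 17 reached 1 TPM in both replicates, all but Tab1 (0.80 and 1.09 TPM). Nfkbiz, which encodes a nuclear inhibitor-of-κB protein needed for secondary response genes, was at 95.4 and 178 TPM, and the kinase gene Irak2 at 104 and 131 TPM. Peli1, a ubiquitin ligase gene, was at 44.6 and 198 TPM and Myd88 at 4.80 and 15.8 TPM. The adaptor gene Myd88 was therefore expressed at a higher level than Il1r1 in each library, and this branch also serves Toll-like receptors.

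Of the 5 other ligand genes of the family, the IL-36 and IL-38 genes Il1f5, Il1f6, Il1f8, Il1f9 and Il1f10, none reached 1 TPM and 4 had 0 counts in both libraries; the second quantification put Il1f9 at 3.39 and 12.6 TPM. Of the 7 other receptor genes only Il1rl2, the IL-36 receptor, reached it by the first quantification, at 2.34 and 1.84 TPM. Il1rapl2 was at 0 there and at 1.30 and 3.88 TPM by the second. Il18r1, which binds IL-18, was listed at 0 in both libraries by the first quantification and at 4.40 and 9.25 TPM by the second. Il18rap was at 0.27 and 0.30 TPM by the first against 3.21 and 9.30 TPM. The quantifications thus disagree on whether the IL-18 receptor chains were expressed. On chromosome 1, Il1r2, Il1r1, Il1rl2, Il1rl1, Il18r1 and Il18rap lie in a row on the plus strand. By the first quantification, Il1r1 and Il1rl2 were the only ones of these at 1 TPM or more in both replicates. By the second, Il18r1 and Il18rap reached it as well.

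**Figure D5:**
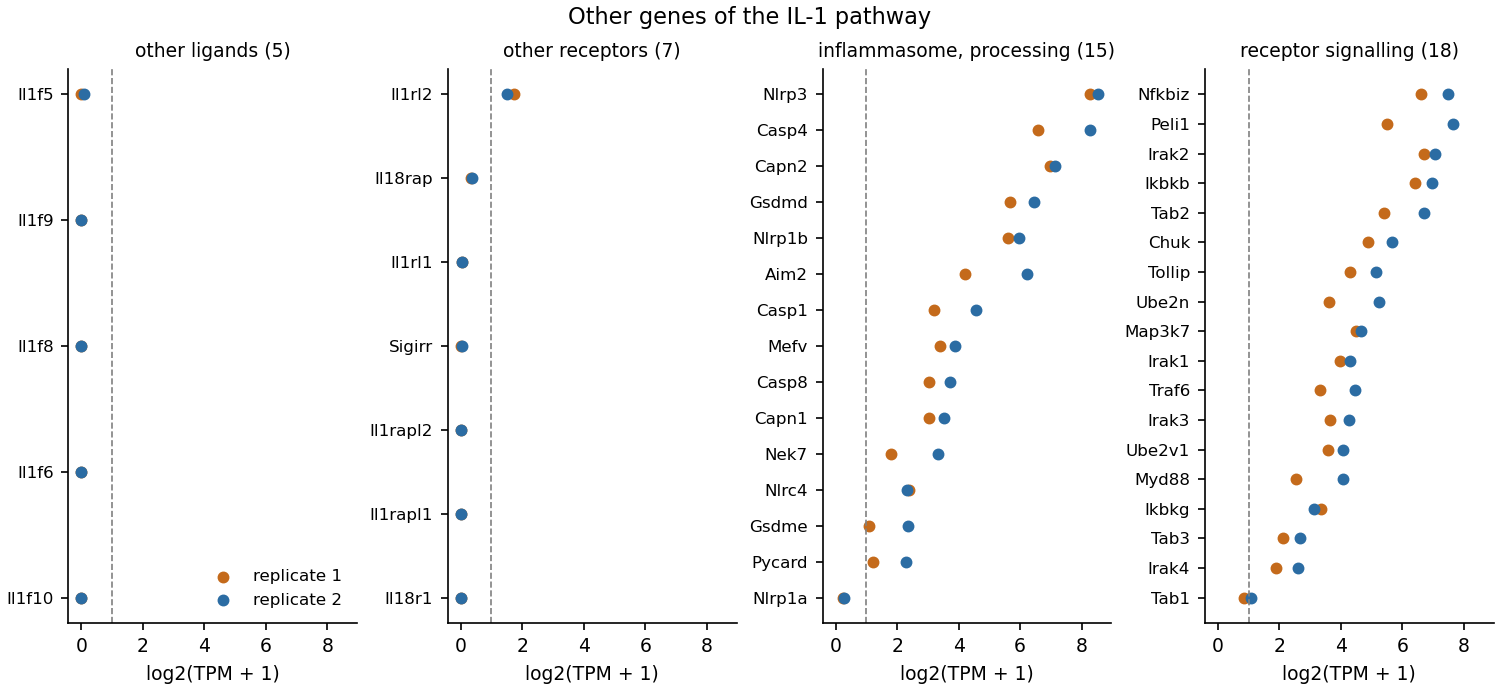
Log2(TPM + 1), by the first quantification, of the other genes of the pathway in replicate 1 and replicate 2, by list, with the dashed line at 1 TPM. All but 1 gene of inflammasomes and processing and all but 1 of receptor signalling lie right of the line in both libraries, against 0 of 5 other ligands and 1 of 7 other receptors.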

How the data were processed

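The 2 libraries of total RNA from the chromatin fraction were analysed as 1 group. The authors deposited, per gene and per transcript, expected (estimated) counts and TPM; the column names are those RSEM writes, on mm10 with GENCODE M21 annotation per the labels. A second transcript table of estimated counts and TPM that the authors deposited has the column names kallisto writes. Aligner, quantifier, versions and use of strand: not given in the sources used here for either table. The deposited posterior SD of counts and TPM intervals refer to posterior means and were not used for results. The 26345 sequences that are not annotated genes, 0.409% and 0.277% of counts, were left out, and 86 annotated genes have no entry in the second quantification.

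Gene counts were rounded and scaled with TMM (edgeR 4.0.16, R 4.3.3), with DESeq2 1.42.0 size factors as an alternative; genes with 20 or more counts over both libraries were compared, and the cuts were 2-fold and 1 TPM. Ratio intervals are exact 95% counting intervals for the given scaling. A similar ratio step, with a small constant added to the counts, was run on simulated counts. Apart from the folds put in, the simulated libraries shared the same composition. That run therefore does not check the scaling between these libraries. Tables and figures were made with Python 3.11.15 and pandas 2.3.3. Every member was named, and of each list those at 1 TPM or more in both replicates could be. Tab1, Il18r1, Il18rap, Il1rapl2, Il1f9, the markers of cell types other than macrophages and the overlapping genes were named after their values were seen. Neighbours were to be all genes between Il1a and Il1rn, but 104948115 bases separate them, so on chromosome 2 that part of the rule was not used. The members and lists were chosen with earlier results of these data known. Promoters and motif shares come from RefSeq (mm10, GRCm38.p6).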

Additional observations from a re-analysis of the deposited data

How the results depend on the processing

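No paired analysis was possible because the libraries form 1 group. By the second quantification, other ligands at 1 TPM or more went from 0 to 1, other receptors from 1 to 4, members past 2-fold higher went from 2 to 1, and members keeping their main transcript from 9 to 4; the cause was not tested. With a cut of 2 TPM, 0 other receptors were expressed. With scaling by library size alone, 4 members were past 2-fold higher, against 28.6% of all genes. With DESeq2 size factors the ratios of all 8 members tested moved by less than their counting interval. TPM recomputed over protein-coding genes alone moved all 9 mean levels, as it must, since those genes took 14.0% and 24.99% of the sum. On that scale Il33 (1.07 and 12.9) and Il1rap (1.86 and 3.20) also passed 1 TPM in both replicates. The share of all genes passing it there was not counted. With 1 library left out the mean levels stayed within 1 SD, as they must with 2 libraries. By TPM Il33, Il1rn and Il1rap rest most on replicate 2. Without replicate 1, 7 of the 9 members kept their main transcript, and without replicate 2 all 9 did. Precision is limited by counting for Il33, Il1rap and Il1r2, and by the number of libraries for all. Protein-coding transcripts alone were an alternative chosen after seeing the data. With it, by the first quantification, Il1b over Il1a and Il1a over Il1rn moved by over 1.5 times in both libraries and kept their direction. By the second, Il1a over Il1rn in replicate 2 went from 0.671 to 1.46, a change of direction.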
